A study of Mus musculus with 18 samples.

Results

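The 35 genes described here belong to the unfolded protein response and the integrated stress response, the programmes by which a cell copes with protein folding load in the endoplasmic reticulum (ER) and with a stalled start of translation. They were chosen by gene symbol from a list, not by their values, and all 35 were found among the 24346 genes listed per library. All 35 reached 1 FPKM (an abundance scaled for transcript length and library size) in each of the 18 libraries and were tested among 12234 genes. The list holds 11 ER chaperones and co-factors, 4 protein disulfide isomerases, 8 genes of ER-associated degradation, 6 sensors and transcription factors, and 6 targets of the transcription factors ATF4 and CHOP.

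RNA was measured in islets of Langerhans isolated from C57BL/6 mice, in 6 groups of 3 libraries. Exon 2 of Cdh13, the gene of the adiponectin-binding T-cadherin, was deleted or was floxed, which means left in place between loxP sites. Deleted and floxed islets were each taken at 14 weeks of age after 6 weeks on a high-fat diet, at 14 weeks on chow, and at 8 weeks on chow, the age at which the diet began. The sources used here do not give the agent that removed exon 2 or the cells in which it acted, and the study's design text calls the floxed mice wild type. The labels number the replicates without saying that each is a separate animal, so every p measures the spread between these libraries, which may be technical.

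Unfolded proteins in the ER are sensed by the membrane proteins encoded by Ern1 (the kinase and RNase IRE1), Eif2ak3 (the kinase PERK) and Atf6. IRE1 splices Xbp1 mRNA and ATF6 is cleaved to a transcription factor, and both induce chaperones, folding enzymes and the machinery that extracts misfolded proteins for degradation; PERK phosphorylates eIF2, which slows translation in general while raising translation of ATF4, a step that other kinases share in the integrated stress response. Pancreatic beta cells make large amounts of proinsulin in the ER and are known to depend on PERK and IRE1.

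Some of the promoters of these genes hold sequences through which the pathways are known to act. The ER stress response element (ERSE, CCAAT and CCACG with 9 bases of any kind between them) is bound by NF-Y with ATF6 or XBP1, a second form (ERSE-II, ATTGG and CCACG with 1 base between them) likewise, the unfolded protein response element (UPRE, TGACGTGG) by XBP1 and ATF6, and the C/EBP-ATF response element (CARE, TGATGNAA) by ATF4 with a C/EBP partner such as CHOP. Each was searched on both strands in the RefSeq windows of build GRCm38.p6 from 250 bases before to 50 bases after the annotated start, which matched 31 of the 35 genes. The ERSE stood in 9 of 31 genes (29.0%), against 29 of 17492 protein-coding genes with a window (0.166%). The ERSE-II stood in 2 of 31 genes (6.45%) and in 11 of all genes (0.0629%), and the CARE in 5 of 31 (16.1%) and in 723 of all genes (4.13%). The UPRE letters were in 0 of 31 genes and in 144 of all genes (0.823%). The 35 genes were listed as members of the pathways that act through these elements. Their higher shares of the ERSE, ERSE-II and CARE are therefore no independent result about them. The sites shown are those of the 5 ERSE genes that were called in a comparison, which include Derl3, and of 3 ATF4 and CHOP targets, Nupr1, Chac1 and Asns. They are printed 5′ to 3′ on the strand that carries the motif, with 10 flanking bases on each side and the fixed motif bases in capitals.
Hspa5 ERSE, chr2:34772015-34772053, plus strand: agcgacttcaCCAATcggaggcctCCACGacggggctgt
Calr ERSE, chr8:84847065-84847103, plus strand: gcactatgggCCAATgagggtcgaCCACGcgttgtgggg
Canx ERSE, chr11:50325790-50325828, minus strand: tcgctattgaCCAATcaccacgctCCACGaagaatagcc
Creld2 ERSE, chr15:88819510-88819548, minus strand: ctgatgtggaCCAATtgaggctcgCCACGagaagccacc
Derl3 ERSE, chr10:75893232-75893270, minus strand: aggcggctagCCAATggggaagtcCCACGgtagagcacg
Nupr1 CARE, chr7:126625563-126625590, plus strand: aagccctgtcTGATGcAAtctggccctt
Chac1 CARE, chr2:119351039-119351066, minus strand: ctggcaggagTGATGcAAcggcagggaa
Asns CARE, chr6:7693215-7693242, minus strand: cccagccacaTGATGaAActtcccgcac
The Hspa5 and Derl3 sites share the ERSE letters, but begin 65 and 156 bases before the annotated start and lie on opposite strands relative to their genes. Hspa5 and Derl3 did not move together in the comparisons that follow. A match is a description of these letters and not evidence of binding in islets.

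**Figure D1:**
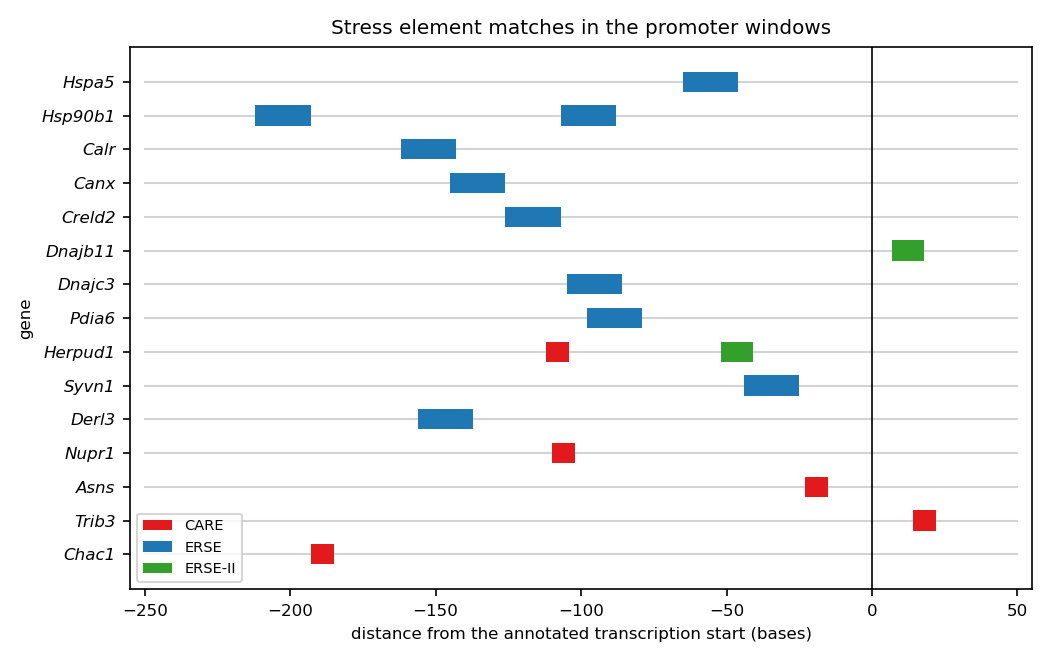
Position of each motif match in the promoter windows of the 15 stress response genes that had one, with the distance from the annotated transcription start in bases on the horizontal axis. The ERSE matches (blue) lie between 212 and 44 bases before the start, and Hsp90b1 has a pair of them.

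The labels were checked first. Cdh13 measured 0.456 ± 0.308 FPKM in deleted and 1.33 ± 0.141 FPKM in floxed islets on the high-fat diet, 0.551 ± 0.136 in deleted and 1.67 ± 0.366 in floxed islets at 14 weeks on chow, and 0.632 ± 0.242 in deleted and 1.34 ± 0.433 in floxed islets at 8 weeks (SD, n = 3 each), and the genotypes did not overlap in any condition. Islet identity was plain, with Ins2 holding 40.2% to 52.7% of the summed FPKM of each library, and with Cd3e and Cd8a of T cells listed at 0 in 15 of 18 libraries. Markers of acinar cells, the exocrine cells around islets, varied widely, with Amy2a5 listed at 0 in all 18 libraries and the summed FPKM of the 12 markers at 108 to 225 in deleted and 26.6 to 323 in floxed high-fat diet libraries, 1575 to 2834 in deleted and 1073 to 5150 in floxed 14-week chow libraries, and 46.2 to 1421 in deleted and 97.7 to 240 in floxed 8-week libraries. The summed FPKM of a library also differed with diet, at 1337804 to 1394009 in high-fat diet libraries and 903346 to 1078671 in 14-week chow libraries. The number of fragments behind these values is unknown, and in bulk RNA fewer cells of a type and less RNA per cell cannot be told apart.

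The mean over 18 libraries was at least 100 FPKM for 19 genes, between 10 and 100 for 14, and below 10 for 2. Nupr1, a small stress-induced chromatin-associated regulator, led with 2612 FPKM, followed by Hspa5, which encodes the chief ER chaperone BiP, with 1507, and the disulfide isomerase genes Pdia3 with 700.1 and P4hb with 605. Ddit3, which encodes CHOP, the pro-apoptotic factor downstream of PERK, averaged 597 FPKM, well above the sensors Ern1 with 23.4, Atf6 with 18.96 and Eif2ak3 with 9.40. Derl3, a derlin of the retrotranslocation machinery, was lowest with 4.996.

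The range over genotypes, diets and ages differed between members. The highest library exceeded the lowest by less than 1.5 times for 23 of the 35 genes, and by more than 2 times for 3: Derl3 at 5.16 times, Nupr1 at 3.23 times and Sesn2, a stress-induced regulator of mTORC1, at 2.18 times. A difference is called here at a Benjamini-Hochberg adjusted p below 0.05 in limma on log2(FPKM + 1). Over 7 comparisons of groups, 21 genes were called at least once and 14 never: Hsp90b1, Dnajb9, Dnajc3, Pdia3, Pdia6, P4hb, Derl1, Derl2, Sel1l, Syvn1, Ern1, Eif2ak3, Xbp1 and Asns. Nupr1 was called in 5 comparisons and Sdf2l1 in 4, of 40 calls in all. Many of the 7 comparisons share a group, so several calls of a gene can rest on the same libraries. Neither these counts nor the ranges above were computed for all genes tested. Of all genes, 28.5% were called in the floxed diet comparison alone, so it is not shown that either is particular to these 35. Fold changes of genes at a few FPKM, such as Derl3, are understated on this scale.

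**Figure D2:**
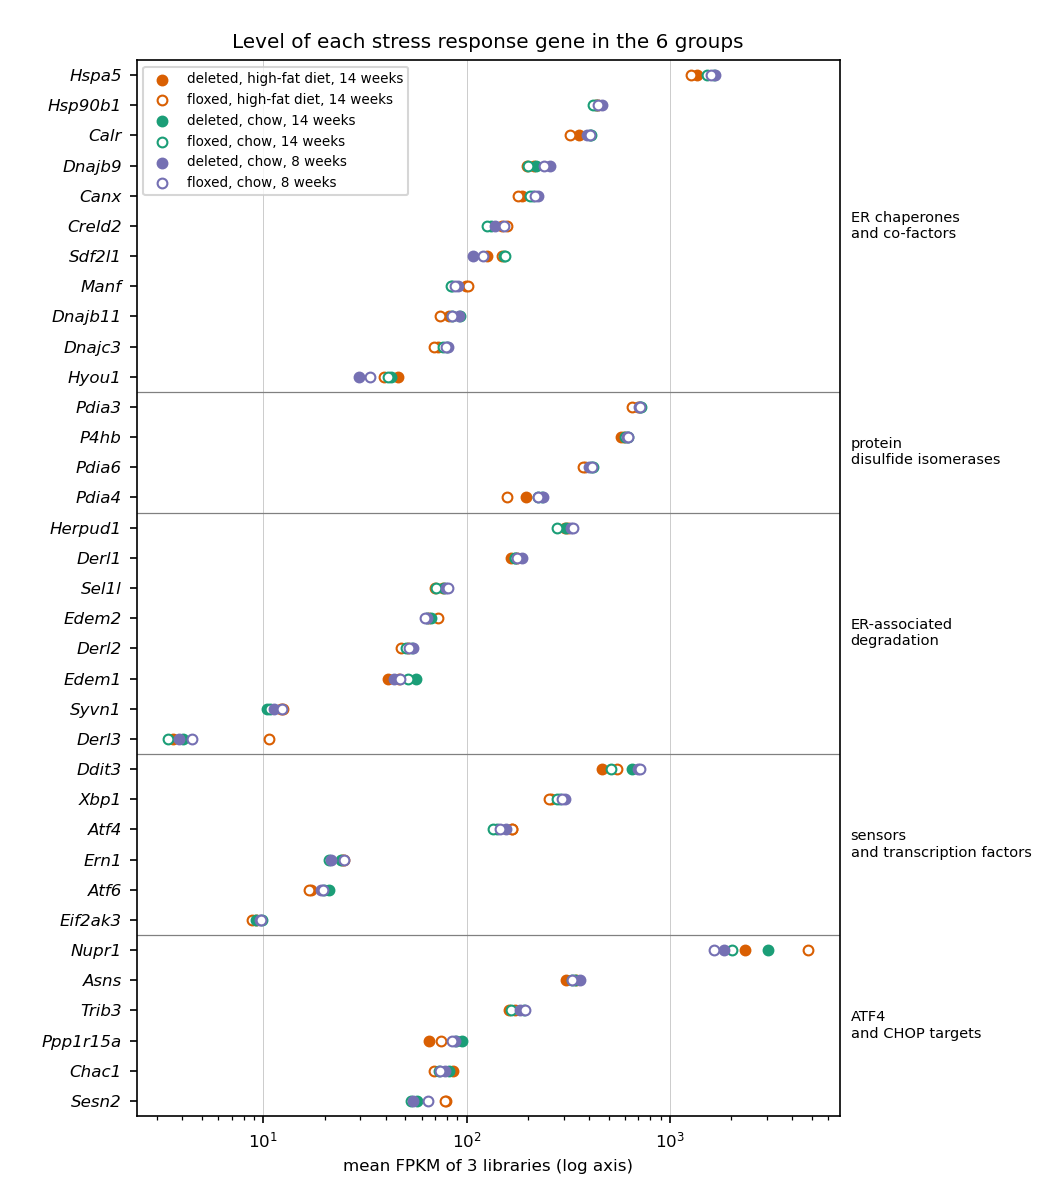
Mean FPKM of 3 libraries per group (log axis) for each of the 35 genes, by role, with deleted islets as filled and floxed islets as open symbols. The groups lie close together for most genes, while Nupr1 and Derl3 are highest in floxed islets on the high-fat diet, at 4777 and 10.7 FPKM.

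On the high-fat diet, Nupr1 and Derl3 were much lower in deleted than in floxed islets, while Pdia4 and Chac1 were higher and Sdf2l1 lower by smaller steps. That made 2 of 35 genes higher and 3 lower, where 10.7% of all genes tested were called (4.70% higher, 6.02% lower). The libraries of the genotypes did not overlap for 7 genes that were higher and 11 that were lower in deleted islets, where 16.4% of all genes were higher and 15.2% lower without overlap. The median difference of the 35 genes was 0.01 on the log2 scale and that of all genes 0.01.

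Among the chaperones, Sdf2l1, a co-factor of BiP complexes, measured 127, 122 and 128 FPKM in deleted and 151, 152 and 146 FPKM in floxed high-fat diet islets. The 3 deleted libraries lay below all 3 floxed ones, with a log2 difference of -0.25 (SE 0.0631, adjusted p = 0.0143). The other 10 chaperone genes did not pass, although Hspa5, Hyou1, Calr and Canx were higher, and Creld2 lower, in every deleted library than in every floxed one. Pdia4, a disulfide isomerase found with BiP, measured 207, 188 and 193 FPKM in deleted and 159, 163 and 154 FPKM in floxed islets. Every deleted library exceeded every floxed library, with a log2 difference of 0.31 (SE 0.0608, adjusted p = 0.00275). The other 3 isomerase genes did not pass, with differences between -0.03 for P4hb and 0.10 for Pdia3.

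In the degradation group, Derl3 measured 3.87, 3.24 and 3.69 FPKM in deleted islets, against 9.66, 10.4 and 11.9 FPKM in floxed islets on the high-fat diet. No deleted library came near the floxed ones, and the deleted mean of 3.6 ± 0.326 FPKM was 33.8% of the floxed mean of 10.7 ± 1.13 FPKM (SD, n = 3 each), a difference of -1.34 (SE 0.169, adjusted p = 3.90e-05). The related Derl1 and Derl2 had differences of -0.10 and 0.10 and did not pass. None of the 6 sensors and transcription factors passed in limma, and 1 of them, Ddit3, had an unadjusted p below 0.05 (-0.24, adjusted p = 0.106).

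Of the ATF4 and CHOP targets, Nupr1 measured 2265, 2429 and 2355 FPKM in deleted islets, against 4847, 4645 and 4839.9 FPKM in floxed islets. The deleted mean of 2350 ± 81.9 FPKM was 49.2% of the floxed mean of 4777 ± 115 FPKM (SD, n = 3 each), with no overlap and a difference of -1.02 (SE 0.0942, adjusted p = 9.68e-07). Chac1, a glutathione-degrading enzyme induced by ATF4, went the other way, with 82.7, 85.1 and 89.2 FPKM in deleted and 72.3, 70.1 and 64.8 FPKM in floxed islets. The deleted libraries were all higher, by 0.31 (SE 0.0792, adjusted p = 0.0164). Asns, Trib3 and Ppp1r15a had differences of -0.15, -0.09 and -0.19 and did not pass, and Sesn2 had 0.00.

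The neighbouring genes of the secretory pathway were called in both directions. Of 33 other ER folding and quality control genes, 0 were higher and 4 lower in deleted islets: Sil1, a nucleotide exchange factor for BiP (-0.32, adjusted p = 0.00596), the prolyl isomerase Fkbp11 (-0.53, adjusted p = 0.00699), the isomerase Pdia5 (-0.29, adjusted p = 0.0233) and the lectin Erlec1 (-0.38, adjusted p = 0.0334). Of 26 translocon and glycosylation genes, 3 were higher and 3 lower, led by the signal peptidase subunit Sec11c (-0.34) and the oligosaccharyltransferase subunit Rpn1 (0.21). Of 39 other integrated stress response genes tested, 3 were higher, the tRNA synthetase genes Gars (0.21) and Eprs (0.19) and the mitochondrial folate enzyme Aldh1l2 (0.31), and 1 was lower, the BH3-only gene Pmaip1 (-0.51).

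Other islet cell types differed between the same libraries. Of 6 alpha cell markers tested, 4 were called higher in deleted islets on the high-fat diet, with a summed level of all 7 of 36187 to 46625 FPKM in deleted and 23403 to 28299 FPKM in floxed libraries. Of 5 delta and PP cell markers tested, 3 were called higher, with sums of all 6 of 21488 to 31690.0 FPKM in deleted and 17465 to 25270.2 FPKM in floxed libraries. Acinar sums overlapped, at 108 to 225 in deleted and 26.6 to 323 FPKM in floxed libraries, and with the acinar level as a covariate all 5 genes stayed called and Ddit3 was called lower (-0.27, adjusted p = 0.0193). Endothelial markers were called lower for 4 of 8 (7 of 8 negative, median -0.41), stromal markers for 1 of 6 (all negative, median -0.64), and beta cell markers were called higher for 3 of 12. The part of these cell types in the 5 calls was not tested. With only these 6 libraries in the fit, 8 genes were called, among them Hyou1, Ddit3 and Asns. Sdf2l1 lost its call without deleted replicate 2 (adjusted p = 0.0579), without floxed replicate 2 (0.0509) and with libraries scaled to equal summed FPKM (0.0588), and Chac1 lost its call without replicate 3 of deleted (0.0652) or floxed islets (0.0830).

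**Figure D3:**
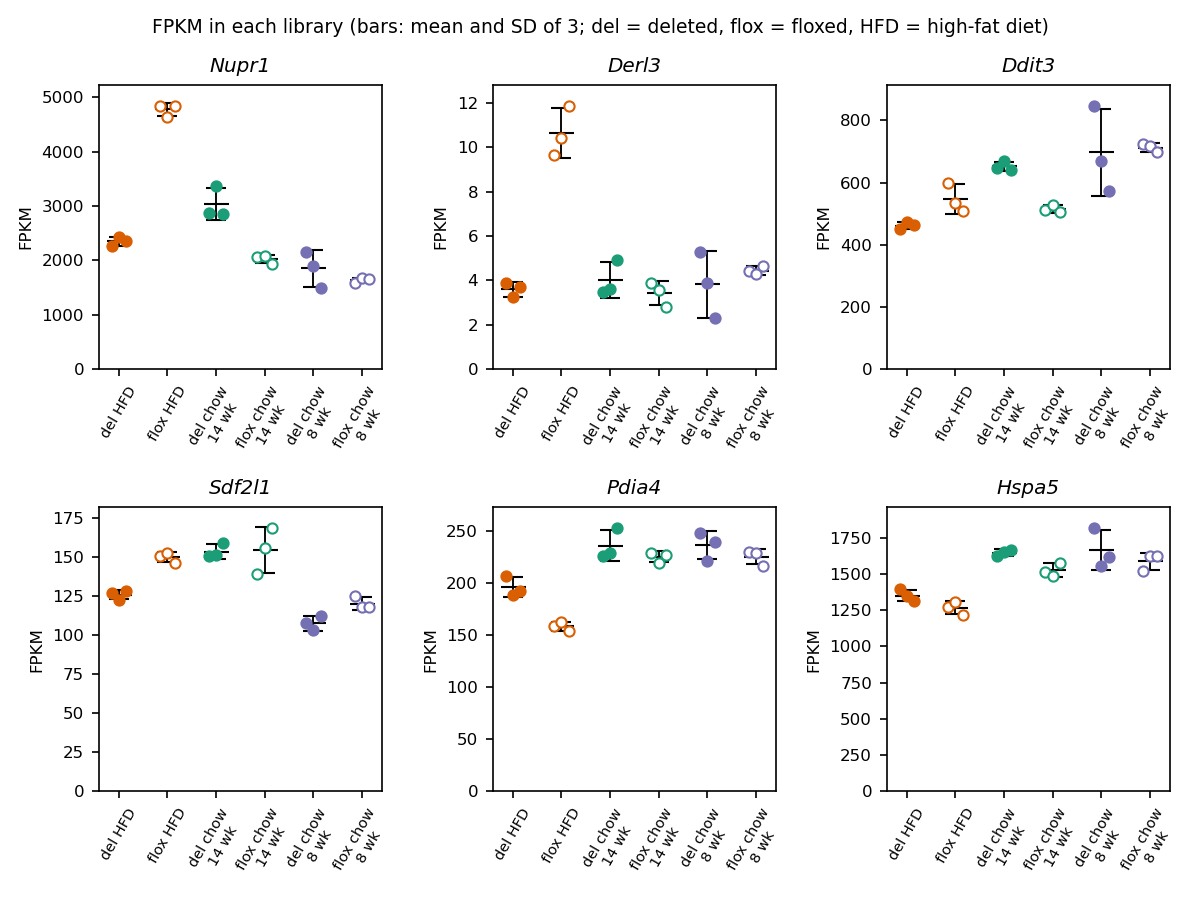
FPKM in every library for 6 of the genes, with the mean and SD of 3 libraries per group and deleted islets as filled symbols. In the Nupr1 and Derl3 panels, the 3 floxed high-fat diet libraries lie above all others, at 4645 to 4847 and 9.66 to 11.9 FPKM.

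At 14 weeks on chow the order of the genotypes at Nupr1 was the opposite. Nupr1 measured 2868, 3369 and 2852 FPKM in deleted islets, against 2058, 2076 and 1934 FPKM in floxed islets. All 3 deleted libraries were higher, with a mean of 3029.6 ± 294 FPKM against 2023 ± 77.2 FPKM in floxed islets (SD, n = 3 each), a ratio of 1.498 and a difference of 0.58 (SE 0.0942, adjusted p = 0.0182). It was the 1 gene of 35 called, where 0.114% of all genes tested were called (0.0654% higher, 0.0490% lower).

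Many of the other genes leaned the same way by small amounts without passing. The difference was above 0 for 31 of 35 genes, with a median of 0.06 against 0.00 for all genes tested, and the groups did not overlap for 8 genes, all higher in deleted islets: Hspa5, Dnajb11, Herpud1, Edem1, Edem2, Ddit3, Chac1 and Nupr1. Of all genes tested, 6.25% were higher and 7.36% lower without overlap. Markers of other cell types were lower in the same deleted libraries, with all 8 endothelial markers (median -0.33, 6 without overlap), all 10 macrophage markers (median -0.29, 5 without overlap, 1 called) and all 6 alpha cell markers tested (median -0.23) negative, and their part was not tested. Ddit3 measured 648, 669 and 639 FPKM in deleted and 511, 529 and 505 FPKM in floxed islets, which do not overlap, yet its difference of 0.34 had an adjusted p of 0.207. Hspa5 measured 1624, 1652 and 1666 FPKM in deleted and 1513, 1483 and 1577 FPKM in floxed islets, a difference of 0.11 (adjusted p = 0.709). None of the 33 other folding genes, the 26 translocon genes or the 39 other integrated stress response genes was called in limma, and 0, 0 and 5 of them had an unadjusted p below 0.05, as did 976 of all genes tested (7.98%).

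The Nupr1 call rested on single libraries and on the shared estimate of spread. Its adjusted p was 0.0647 without deleted replicate 2, 0.0740 without floxed replicate 2, 0.0608 without floxed replicate 3, 0.0650 with quantile normalization and 0.0799 with only these 6 libraries in the fit.

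At 8 weeks on chow none of the 35 genes differed between genotypes in limma, where 0.548% of all genes tested were called (0.180% higher, 0.368% lower). The genotypes did not overlap for Dnajb11 and Asns, which were higher in every deleted library, and Sdf2l1, which was lower, where 7.19% of all genes were higher and 9.35% lower without overlap. Unadjusted p-values below 0.05 went to 2 of 35 genes, Sdf2l1 (-0.16) and Asns (0.13), and to 1535 of all genes. Nupr1 measured 2158, 1898 and 1499 FPKM in deleted and 1593, 1668 and 1666 FPKM in floxed islets, and the groups overlapped (adjusted p = 0.525). Ddit3 overlapped too, with 847, 670.1 and 572 FPKM in deleted and 724, 717 and 697 FPKM in floxed islets. Deleted replicate 1 held 1421 FPKM of acinar markers and had the highest Ddit3 and the lowest Sesn2 and Hyou1 of all 18 libraries, at 37.2 and 25.6 FPKM. Ppy, the pancreatic polypeptide gene of PP cells, had a mean of 39704 FPKM in deleted islets, against 9830 in floxed islets at this age (adjusted p = 0.0710), while Sst of delta cells had 1787 in deleted and 1796 in floxed islets. Of 5 delta and PP cell markers tested, 1 was called higher, Pyy, with means of 8134 FPKM in deleted and 4454 FPKM in floxed islets. All 6 alpha cell markers tested were lower in deleted islets, 2 of them called. Of the neighbouring lists, 1 gene was called, the glucosidase gene Mogs (-0.57, adjusted p = 0.0328).

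In floxed islets, the high-fat diet went with higher Nupr1 and Derl3 and with lower levels of the abundant folding factors Pdia4, Calr and Hspa5, relative to chow at the same age. In all, 7 of 35 genes were higher and 7 lower, where 28.5% of all genes tested were called (15.0% higher, 13.5% lower). The diets did not overlap for 10 genes that were higher and 12 that were lower, against 21.8% and 21.5% of all genes. The median difference of the 35 genes was -0.03, against -0.01 for all genes. The 2 degradation genes that passed were higher (Edem2 was lower with libraries scaled to equal summed FPKM), while 4 of the 6 chaperones that passed and the 1 isomerase were lower.

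Among the chaperones, Hspa5 measured 1271, 1307 and 1219 FPKM on the high-fat diet and 1513, 1483 and 1577 FPKM on chow. Calr, the soluble lectin chaperone calreticulin, measured 317, 333 and 315 FPKM on the high-fat diet and 400.3, 413 and 411 FPKM on chow. Canx, its membrane-bound relative calnexin, measured 179.8, 179.8 and 174 FPKM on the high-fat diet and 202, 204 and 208 FPKM on chow. In all of these every high-fat diet library lay below every chow library, and the differences were -0.27 for Hspa5 (SE 0.0608, adjusted p = 0.00285), -0.34 for Calr (SE 0.0692, adjusted p = 0.00109) and -0.20 for Canx (SE 0.0527, adjusted p = 0.00789). Dnajb11, a co-chaperone of BiP, was lower by a similar step (-0.20, adjusted p = 0.0205). Creld2, an ER stress-induced protein with EGF-like domains, measured 154, 158 and 162 FPKM on the high-fat diet and 121, 131 and 127 FPKM on chow, without overlap. Its difference of 0.32 (adjusted p = 0.00623) and that of Manf, a secreted ER stress-induced factor (0.28, adjusted p = 0.00999), were positive in the deposited scale but -0.15 and -0.19 with libraries scaled to equal summed FPKM.

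Pdia4 fell furthest among the isomerases, with 159, 163 and 154 FPKM on the high-fat diet and 229, 219.8 and 228 FPKM on chow. The high-fat diet mean of 159 ± 4.51 FPKM was 70.3% of the chow mean of 226 ± 5.02 FPKM (SD, n = 3 each), a difference of -0.51 (SE 0.0608, adjusted p = 8.12e-06). Pdia3, P4hb and Pdia6 had differences of -0.13, -0.03 and -0.14 and did not pass. In the degradation group, Derl3 measured 9.66, 10.4 and 11.9 FPKM on the high-fat diet, against 3.87, 3.57 and 2.81 FPKM on chow. That is 3.12 times the chow mean with no overlap, a difference of 1.40 (SE 0.169, adjusted p = 8.35e-06). Edem2, which helps to mark misfolded glycoproteins for disposal, measured 70.3, 73.1 and 74.3 FPKM on the high-fat diet and 63.2, 65.5 and 63.0 FPKM on chow, a difference of 0.18 (adjusted p = 0.0175) that was -0.29 under equal sums.

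Of the regulators, Atf4 measured 172, 167 and 163 FPKM on the high-fat diet and 127, 143 and 136 FPKM on chow, a difference of 0.31 (SE 0.065, adjusted p = 0.00166) that was -0.16 under equal sums. Atf6 measured 17.6, 17.6 and 15.3 FPKM on the high-fat diet and 19.9, 21.1 and 18.7 FPKM on chow (-0.23, adjusted p = 0.0469). The groups did not overlap at either gene. Ddit3 did not pass, with 599, 534 and 508 FPKM on the high-fat diet and 511, 529 and 505 FPKM on chow (0.08, adjusted p = 0.544). Ern1, Eif2ak3 and Xbp1, with 0.21, -0.15 and -0.13, did not pass either. ATF4 activity is set largely by translation and XBP1 and ATF6 activity by splicing and cleavage, which gene-level RNA does not show.

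Nupr1 rose most of the 6 ATF4 and CHOP targets, with 4847, 4645 and 4839.9 FPKM on the high-fat diet, against 2058, 2076 and 1934 FPKM on chow. Every high-fat diet library exceeded every chow library, 2.36 times on average, a difference of 1.24 (SE 0.0942, adjusted p = 4.61e-08). Sesn2 measured 76.1, 78.9 and 81.1 FPKM on the high-fat diet and 53.5, 61.6 and 45.0 FPKM on chow (0.56, adjusted p = 0.0283). Ppp1r15a, which encodes the phosphatase subunit GADD34 that restores translation, was lower, with 70.5, 79.1 and 75.7 FPKM on the high-fat diet and 90.7, 90.01 and 84.7 FPKM on chow (-0.23, adjusted p = 0.0398). Both were without overlap. Trib3, Chac1 and Asns had differences of 0.06, -0.07 and 0.06 and did not pass.

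The neighbouring lists moved in floxed islets as well. Of 33 other folding and quality control genes, 6 were higher and 6 lower, led by Pdia5 (0.57, adjusted p = 4.39e-05), Fkbp11 (0.75, adjusted p = 0.000147), Erlec1 (0.53) and the glucosidase subunit gene Prkcsh (0.41). Of 26 translocon and glycosylation genes, 11 were higher and 5 lower, led by the translocon-associated Ssr4 (0.70, adjusted p = 3.98e-06), the signal peptidase subunits Spcs1 (0.69) and Sec11c (0.57), and Sec62 (0.52). Of 39 other integrated stress response genes, 4 were higher and 14 lower. Gdf15, a secreted stress cytokine, rose most, with 18.04, 18.6 and 20.7 FPKM on the high-fat diet and 4.34, 7.45 and 7.23 FPKM on chow (1.48, adjusted p = 4.84e-06), while Aldh1l2 (-0.56) and the tRNA synthetase genes Nars (-0.54) and Tars (-0.42) were lower.

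Acinar markers moved with diet in these libraries: 10 of 11 tested were called lower on the high-fat diet, with summed levels of 26.6 to 323 FPKM on the diet and 1073 to 5150 FPKM on chow. Macrophage markers were called lower for 8 of 10, with sums of 230.2 to 263 FPKM on the diet and 381 to 434 FPKM on chow. Delta and PP cell markers and duct markers were each called lower for 3 of 5. Endothelial markers were called lower for 3 of 8, and alpha cell and stromal markers each for 2 of 6. Of 12 beta cell markers, 4 were called higher and 1 lower. The part of these other cell types was not tested. The acinar sums did not overlap between diets, so an acinar covariate carries much of the diet difference itself. A call that ended with it therefore cannot be assigned to either. With the mean acinar level as a covariate, 7 of the 35 genes were called (6 higher, 1 lower): the calls of Hspa5 (adjusted p = 0.269), Calr (0.126), Canx (0.128), Dnajb11 (0.272), Manf (0.0589), Edem2 (0.0583), Atf6 (0.321), Ppp1r15a (0.903) and Sesn2 (0.543) ended, those of Nupr1, Derl3, Pdia4, Creld2 and Atf4 did not, and Herpud1 (0.36) and Ddit3 (0.40) were called higher. Equal summed FPKM moved the median of all genes to -0.41, took the 7 lower members to between -0.98 and -0.66 and Nupr1 to 0.77, and gave 2 members higher and 29 lower, while quantile normalization gave 5 higher and 13 lower, with Hspa5 at -0.62, Calr at -0.57 and Canx at -0.33. Leaving out floxed chow replicate 1 left 9 members called, and Sesn2 (adjusted p up to 0.110), Atf6 (0.198), Ppp1r15a (0.153), Dnajb11 (0.104), Edem2 (0.0622) and Manf (0.0723) each lost the call without at least 1 of the 6 libraries.

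In deleted islets the high-fat diet went mainly with lower levels: 2 of 35 genes were higher and 11 lower than on chow, where 15.0% of all genes tested were called (9.05% higher, 5.91% lower). The diets did not overlap for 5 genes that were higher and 17 that were lower, against 17.4% and 16.3% of all genes. The median difference was -0.12, against 0.00 for all genes. Hspa5, Pdia4 and Atf6 were lower as in floxed islets, while Ddit3, Edem1, Trib3 and Sdf2l1 were called lower in deleted islets and not in floxed islets, and Nupr1 was lower where floxed islets had it higher.

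Hspa5 measured 1394, 1346 and 1313 FPKM on the high-fat diet, against 1624, 1652 and 1666 FPKM on chow (-0.29, SE 0.0608, adjusted p = 0.00337). Sdf2l1 measured 127, 122 and 128 FPKM on the high-fat diet and 150.2, 151 and 159 FPKM on chow (-0.29, SE 0.0631, adjusted p = 0.00455). Canx measured 186, 192 and 185 FPKM on the high-fat diet and 207, 209 and 221 FPKM on chow (-0.17, adjusted p = 0.0300). The high-fat diet libraries lay below all chow libraries at each of these genes, and Dnajb11 was lower too (-0.18, adjusted p = 0.0457). Manf measured 101, 98.4 and 100.4 FPKM on the high-fat diet and 84.2, 88.4 and 81.1 FPKM on chow, a difference of 0.24 (adjusted p = 0.0418) that was -0.22 under equal sums. Pdia4 measured 207, 188 and 193 FPKM on the high-fat diet and 226, 229 and 253 FPKM on chow (-0.26, SE 0.0608, adjusted p = 0.00603), again without overlap.

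Edem1, a lectin that draws misfolded glycoproteins into degradation, measured 41.7, 41.4 and 40.6 FPKM on the high-fat diet and 56.2, 53.0 and 59.5 FPKM on chow. The high-fat diet mean was 73.3% of the chow mean, a difference of -0.44 (SE 0.0747, adjusted p = 0.00059). Derl3 did not pass in deleted islets, with 3.87, 3.24 and 3.69 FPKM on the high-fat diet and 3.50, 3.62 and 4.94 FPKM on chow (-0.12, adjusted p = 0.704), and the groups overlapped.

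Ddit3 measured 449, 472 and 462 FPKM on the high-fat diet, against 648, 669 and 639 FPKM on chow, 70.7% of the chow mean (-0.50, SE 0.0941, adjusted p = 0.00139). Atf4 measured 169.7, 174 and 160.5 FPKM on the high-fat diet and 137, 145 and 142 FPKM on chow, a difference of 0.25 (adjusted p = 0.0134) that was -0.21 under equal sums. Atf6 measured 18.6, 16.2 and 16.5 FPKM on the high-fat diet and 20.5, 19.4 and 23.4 FPKM on chow (-0.29, adjusted p = 0.0277). Diet groups did not overlap at these 3 genes, so that in the deposited scale the message of Atf4 was higher while that of Ddit3, which ATF4 is known to induce, was lower.

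The 3 targets that passed were lower, as Ddit3 was, and a link between them was not tested. Ppp1r15a measured 68.9, 67.5 and 60.5 FPKM on the high-fat diet and 86.5, 89.9 and 107 FPKM on chow (-0.51, SE 0.0828, adjusted p = 0.000354). Trib3, a pseudokinase induced by CHOP, measured 162, 165 and 159 FPKM on the high-fat diet and 191, 172 and 209 FPKM on chow (-0.23, adjusted p = 0.0403). Nupr1 measured 2265, 2429 and 2355 FPKM on the high-fat diet and 2868, 3369 and 2852 FPKM on chow, 77.6% of the chow mean (-0.36, SE 0.0942, adjusted p = 0.0128). None of the 3 overlapped between diets. Sesn2 had a difference of 0.48 and an adjusted p of 0.0897, and Chac1 and Asns, with 0.07 and -0.14, did not pass.

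Of the neighbouring lists in deleted islets, 1 of 33 folding and quality control genes was higher, Mogs (0.53), and 3 were lower, Edem3 (-0.45), Serp1 (-0.27) and Man1b1 (-0.26). Of 26 translocon and glycosylation genes, 6 were higher and 5 lower, led by Spcs3 (-0.43), Sec61g (0.48), Sec62 (0.37) and Ssr2 (-0.28). Of 39 other integrated stress response genes, 1 was higher, Gdf15 (0.78, adjusted p = 0.00355), with 19.1, 16.6 and 16.8 FPKM on the high-fat diet and 12.1, 8.85 and 8.55 FPKM on chow, and 12 were lower, led by Nars (-0.51), Lars (-0.35) and Aldh1l2 (-0.44).

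Acinar markers moved with diet here too, with 7 of 11 called lower and sums of 108 to 225 FPKM on the high-fat diet against 1575 to 2834 FPKM on chow, while 9 of 12 beta cell markers, 3 of 6 alpha cell markers and 2 of 5 delta and PP cell markers were called higher. Stromal markers were called lower for 5 of 6 (median -1.18). The part of these other cell types was not tested. The acinar sums did not overlap between diets here either, so a call that ended with the covariate cannot be assigned to diet or acinar level. With the acinar level as a covariate, 3 of the 35 genes stayed called, Sdf2l1, Edem1 and Atf4, and the differences of Nupr1 and Ddit3 were -0.12 (adjusted p = 0.596) and -0.22 (adjusted p = 0.206). Equal sums, which moved the median of all genes to -0.41, gave 0 members higher and 32 lower, with the 11 lower members at -0.98 to -0.64, and quantile normalization gave 1 higher and 20 lower, with Nupr1 at -0.68 and Hspa5 at -0.51. Without deleted high-fat diet replicate 2 the count was 7, without its replicate 3 or without deleted chow replicate 1 or 3 it was 8, and Nupr1 lost its call without deleted chow replicate 2 (adjusted p = 0.0615).

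The diet comparisons in deleted and floxed islets share no libraries with each other. The floxed diet comparison and the genotype comparison on the high-fat diet use the same floxed high-fat diet libraries. The deleted chow libraries at 14 weeks serve the diet and age comparisons of deleted islets and the genotype comparison at that age. Calls of a gene in comparisons that share a group are not independent. Of 13 genes called in deleted and 14 called in floxed islets, 9 were called in both, 69.2% of the deleted and 64.3% of the floxed calls. Over all genes tested, 1106 were called in both, 60.4% of the 1830 deleted and 31.7% of the 3486 floxed calls, and 1059 of them had the same direction. Of these 9, 6 were lower in both genotypes (Hspa5, Dnajb11, Canx, Pdia4, Atf6 and Ppp1r15a), 2 were higher in both (Manf and Atf4, which were lower in both under equal sums) and Nupr1 went in opposite directions.

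Whether the diet difference itself depended on genotype was tested as an interaction, the diet difference of deleted islets minus that of floxed islets. It was called for 3 of 35 genes, where 3.53% of all genes tested were called (1.42% higher, 2.11% lower), and for all of them the change in deleted islets was the lower one. Nupr1 had an interaction of -1.60 (SE 0.133, adjusted p = 1.11e-06), from diet differences of -0.36 in deleted and 1.24 in floxed islets. Derl3 had -1.52 (SE 0.240, adjusted p = 0.00121), from -0.12 in deleted and 1.40 in floxed islets. Ddit3 had -0.58 (SE 0.133, adjusted p = 0.0177), from -0.50 in deleted and 0.08 in floxed islets. At Derl3 the floxed high-fat diet libraries alone stood apart, whereas at Nupr1 the order of the genotypes was opposite on the 2 diets. Over the other 32 genes, 8 more had an unadjusted p below 0.05, as did 2089 of all genes tested (17.1%), and Sel1l (-0.25), Edem2 (-0.22), Pdia4 (0.24) and Trib3 (-0.30) had the smallest adjusted p of these, between 0.110 and 0.143. Alpha cell markers (4 of 6 tested) and delta and PP cell markers (3 of 5) were called with positive interactions, and their part in those of the 3 genes was not tested. Of the neighbouring lists, the serine synthesis gene Phgdh (-0.55) and Sec11c (-0.43) were called. The Ddit3 interaction was -0.52 with an adjusted p of 0.0553 without floxed high-fat diet replicate 1, which had the highest Ddit3 of its group, and the Nupr1 and Derl3 interactions stayed called under every alternative in which they were tested.

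**Figure D4:**
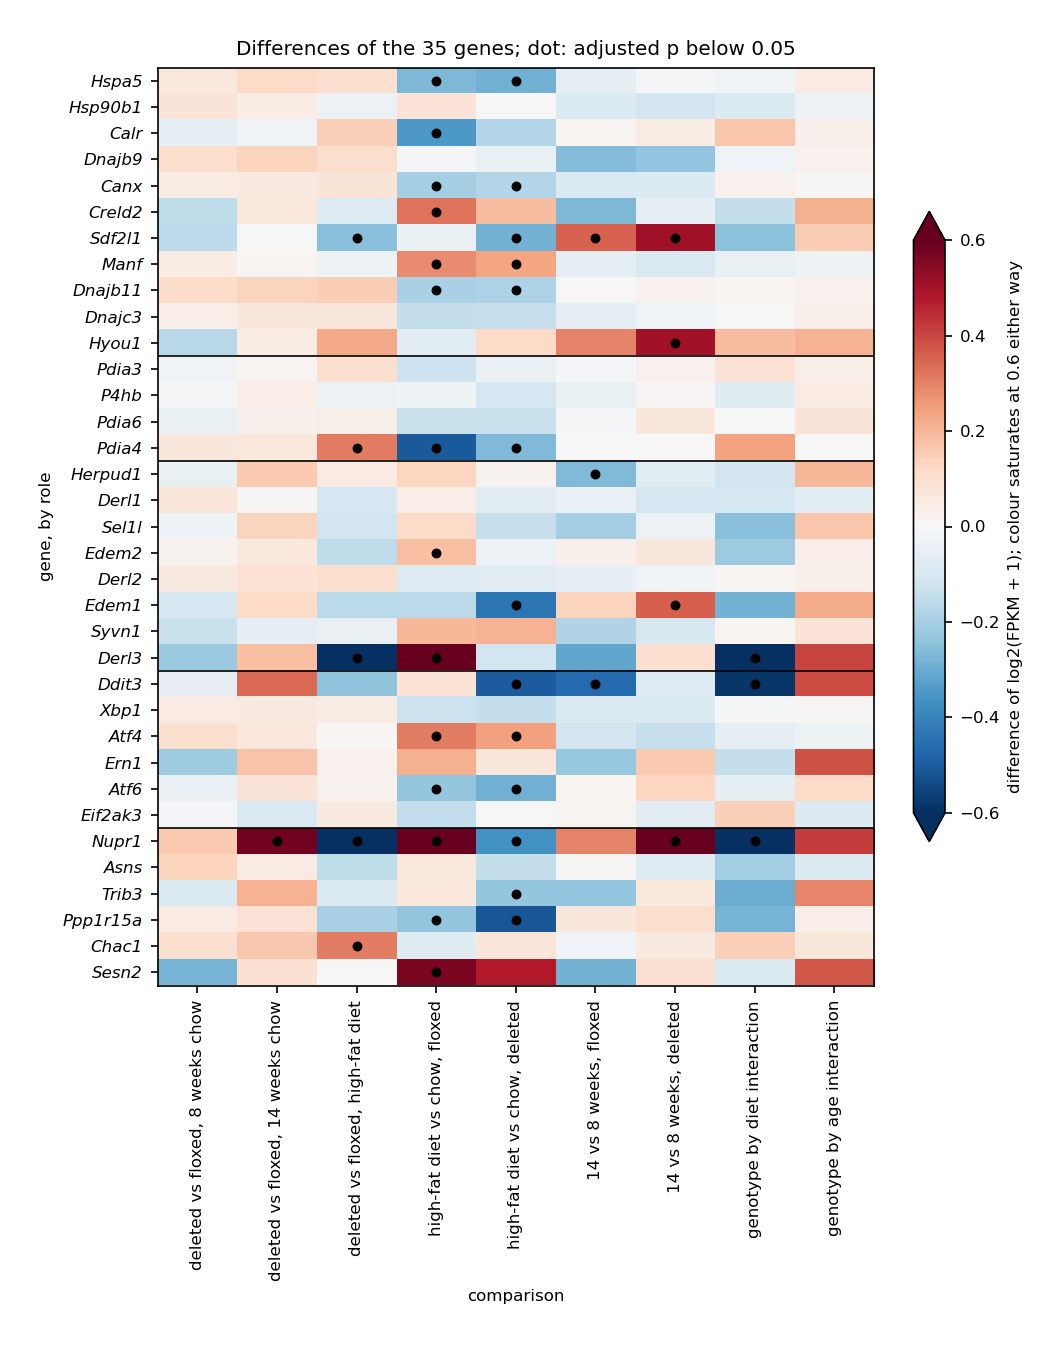
Difference in log2(FPKM + 1) for each of the 35 genes, by role, in the 7 comparisons and 2 interactions, each named with the group on top first, with a dot where the adjusted p is below 0.05. Dots are densest in the 2 diet columns, where 14 genes in floxed and 13 in deleted islets are called. Under equal summed FPKM the dotted red cells of Manf, Atf4, Creld2 and Edem2 in the floxed diet column, and of Manf and Atf4 in the deleted one, turn negative. Red cells without a dot turn negative too, such as Herpud1 in both diet columns (-0.34 in floxed, -0.44 in deleted islets).

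Between 8 and 14 weeks on chow, Sdf2l1 was higher at the later age in both genotypes, and few other members changed. In floxed islets 1 of 35 genes was higher and 2 were lower at 14 weeks, where 4.15% of all genes tested were called (3.20% higher, 0.948% lower). The ages did not overlap for 4 genes that were higher and 10 that were lower, against 11.4% and 12.1% of all genes. Sdf2l1 measured 139, 155 and 168 FPKM at 14 weeks, against 125, 118 and 118 FPKM at 8 weeks (0.35, SE 0.0631, adjusted p = 0.00269). Herpud1, an ER membrane component of the degradation complex, had 284, 271 and 278 FPKM at 14 weeks, against 342, 332 and 325 FPKM at 8 weeks (-0.26, SE 0.0692, adjusted p = 0.0354). Ddit3 had 511, 529 and 505 FPKM at 14 weeks, against 724, 717 and 697 FPKM at 8 weeks, 72.3% of the younger mean (-0.47, SE 0.0941, adjusted p = 0.00664). The ages did not overlap at any of the 3 genes. Herpud1 lost its call without any 1 of the 6 libraries (adjusted p of 0.0513 to 0.147) and under equal sums (-0.10, adjusted p = 0.341), which moved the median of all genes to 0.12. With the acinar level as a covariate, Herpud1 was at -0.47 and Ddit3 at -0.76.

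In deleted islets 4 of 35 genes were higher at 14 weeks and 0 lower, where 2.91% of all genes tested were called (2.35% higher, 0.564% lower). The ages did not overlap for 4 genes that were higher and 2 that were lower, against 9.93% and 10.3% of all genes. Sdf2l1 measured 150.2, 151 and 159 FPKM at 14 weeks and 108, 103 and 112 FPKM at 8 weeks (0.51, SE 0.0631, adjusted p = 9.82e-05). Hyou1, the large ER chaperone that exchanges nucleotide on BiP, measured 41.0, 37.5 and 49.4 FPKM at 14 weeks and 25.6, 30.5 and 32.95 FPKM at 8 weeks (0.51, SE 0.0923, adjusted p = 0.00403). Neither gene overlapped between ages. Edem1 measured 56.2, 53.0 and 59.5 FPKM at 14 weeks and 38.7, 44.8 and 47.7 FPKM at 8 weeks (0.36, SE 0.0747, adjusted p = 0.0106). Nupr1 measured 2868, 3369 and 2852 FPKM at 14 weeks and 2158, 1898 and 1499 FPKM at 8 weeks, 1.64 times as much (0.72, SE 0.0942, adjusted p = 0.000169). These did not overlap either. With only these 6 libraries in the fit, Sdf2l1 alone stayed called, and Edem1 lost its call without 14-week replicate 3 (adjusted p = 0.0611) or 8-week replicate 1 (0.0586).

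Acinar sums were higher at 14 weeks, at 1575 to 2834 FPKM against 46.2 to 1421 FPKM at 8 weeks in deleted islets and at 1073 to 5150 FPKM against 97.7 to 240 FPKM in floxed islets, and with their level as a covariate 4 genes were called in each genotype. These sums did not overlap between ages, so the covariate carries much of the age difference itself. Macrophage markers were called higher for 2 of 10 in deleted and 9 of 10 in floxed islets, with sums in floxed islets of 381 to 434 FPKM at 14 weeks and 242 to 278 FPKM at 8 weeks. Duct markers were called higher for 1 of 5 in deleted and 3 of 5 in floxed islets. Alpha cell markers were called higher for 3 of 6 in deleted and 1 of 6 in floxed islets. Beta cell markers were called lower for 2 of 12 in each genotype, with 10 of 12 negative in deleted and 11 of 12 in floxed islets. Delta and PP cell markers were called lower for 2 of 5 in deleted and 0 of 5 in floxed islets. The part of these cell types was not tested. The neighbouring lists showed higher levels only among the genes called: Fkbp2, an ER prolyl isomerase (0.56 in floxed and 0.72 in deleted islets), Erp29 and Ube2g2 in both genotypes, and of the integrated stress response genes Nars (0.63 in floxed, 0.65 in deleted), Wars (0.40 in floxed, 0.47 in deleted) and 1 more in floxed and 4 more in deleted islets. No member had a called interaction of genotype with age in limma, where 0.196% of all genes tested were called (0.0490% higher, 0.147% lower), and 4 members and 1090 of all genes had an unadjusted p below 0.05. Without deleted 8-week replicate 1, whose acinar sum and Ddit3 level stood apart, Ddit3 (0.54, adjusted p = 0.0117) and Nupr1 (0.54, adjusted p = 0.0421) were called.

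Each role was summarised in each library as the mean of log2(FPKM + 1) minus its mean over 18 libraries, as a description without a test. ATF4 and CHOP targets averaged -0.02 in deleted and 0.17 in floxed islets on the high-fat diet, 0.10 in deleted and -0.10 in floxed islets at 14 weeks on chow, and -0.06 in deleted and -0.08 in floxed islets at 8 weeks. The degradation genes showed the same high point, at -0.07 in deleted and 0.15 in floxed islets on the high-fat diet, 0.00 in deleted and -0.08 in floxed islets at 14 weeks on chow, and -0.02 in deleted and 0.03 in floxed islets at 8 weeks. Nupr1 and Derl3 were the members of these roles with the largest differences between genotypes on the high-fat diet. Without Nupr1, the other 5 targets averaged -0.02 in deleted and 0.01 in floxed islets on the high-fat diet. Without Derl3, the other 7 degradation genes averaged -0.04 in deleted and 0.02 in floxed islets on that diet. The isomerase mean ran the other way, at -0.06 in deleted and -0.16 in floxed islets on the high-fat diet and between 0.04 and 0.08 in the 4 chow groups. On that diet the genotype difference was 0.31 for Pdia4, against 0.10 for Pdia3, 0.03 for Pdia6 and -0.03 for P4hb. The chaperones stayed between -0.06 and 0.05 in all 6 groups.

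**Figure D5:**
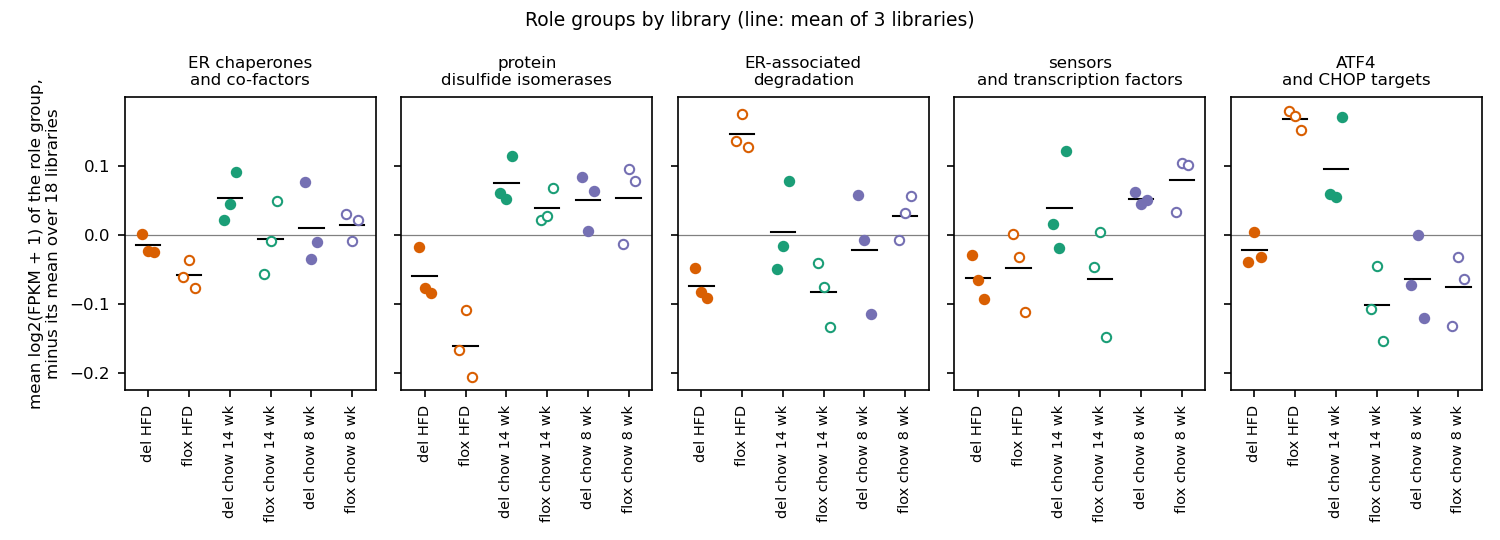
Mean log2(FPKM + 1) of each role group in every library, minus its mean over the 18 libraries, with a line at the mean of 3 libraries and deleted islets as filled symbols. Floxed high-fat diet libraries are highest for the degradation genes (0.13 to 0.18) and lowest on average for the disulfide isomerases (mean -0.16).

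The genes with an ERSE in the window were called in both directions for the diet in floxed islets. In floxed islets on the high-fat diet, 2 of the 9 were called higher (Creld2, which was -0.15 under equal sums, and Derl3), 3 lower (Hspa5, Calr and Canx) and 4 did not pass, with a median of -0.14. The 22 genes with a window and no ERSE had 4 called higher, 3 lower and a median of -0.02. In deleted islets, 0 of the 9 were higher and 2 lower (Hspa5 and Canx), with medians of -0.13 with and -0.12 without an ERSE. There, 7 of the 9 with and 17 of the 22 without an ERSE had a negative difference. With age in floxed islets, 8 of the 9 with and 14 of the 22 without were negative, and 0 of the 9 were called. At 14 weeks on chow, 7 of the 9 with and 20 of the 22 without were higher in deleted than in floxed islets. Of the 5 genes with a CARE, Nupr1 was called higher in floxed islets on the high-fat diet, Nupr1 and Trib3 were called lower in deleted islets, and Asns was called in no comparison.

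The deposited values are per gene symbol, and the library preparation does not mark the strand. Exons of Nupr1 (chr7:126623249-126630861, minus strand), Derl3 (chr10:75893413-75895941, plus strand) and Ddit3 (chr10:127290829-127293753, plus strand) overlap no exon of another gene in the GENCODE annotation of GRCm38. The widest overlap among the 35 genes was at Hsp90b1, with 10.3% of its exon bases shared with 1810014B01Rik on the other strand, which averaged 7.08 FPKM.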

How the data were processed

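RNA of mouse islets was measured in 18 libraries, 3 per group. Per the labels, SMART-Seq HT gave the cDNA, and Nextera libraries, which do not mark strand, were sequenced. The authors deposited FPKM values per gene symbol. The submitters' processing notes name mm10, Cufflinks 2.2.1, TopHat2 2.0.13, SAMtools 0.1.19 and Bowtie2 2.2.3. Which annotation was used, and what each tool did, is not given in the sources used here. No header names the unit, so FPKM was inferred from Cufflinks and from the values. Libraries had similar medians (median ratios to their geometric mean of 1.0037 to 1.0079) while summed FPKM ranged from 903346 to 1394009. No counts are given, so depth is unknown and the precision of low values cannot be stated.

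A gene was tested if it reached 1 FPKM in 3 or more of the 18 libraries, which kept 12234 of 24346, of which 5544 were at 0 throughout. The limma package (3.58.1, with statmod 1.5.0 and R 4.3.3) was fitted to log2(FPKM + 1) with a mean for each of 6 groups and trended, robust moderated variances. P-values were adjusted by Benjamini-Hochberg over all genes tested and called below 0.05. The fit was tested on simulated data. Gene positions are from GENCODE M21 on GRCm38. Figures were drawn with matplotlib 3.10.9 (python 3.11.15, pandas 2.3.3, numpy 2.4.6).

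The 35 genes, the neighbouring and marker lists, the tests and the naming rule were chosen with earlier results of these data known. Values in every library are given for up to 4 called members per role and comparison with the smallest p and for members called in an interaction. Other called members are given by their difference, and up to 4 called genes per neighbouring list are named. Members and genes named outside this rule, such as Ddit3 and Hspa5 where not called, were named after their values were seen. Alternatives were a pseudocount of 0.1, no filter, a filter at a mean of 5 FPKM, quantile normalization, scaling by median ratios, only the groups compared, the replicate number as a block, the acinar marker mean as a covariate, and each library left out. Scaling to equal summed FPKM was added after the data were seen.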

Additional observations from a re-analysis of the deposited data

Results flagged for a closer look

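The diet difference differed between genotypes for 3 of the 35 genes by the interaction test. Nupr1 had an interaction of -1.60 (SE 0.133, adjusted p = 1.11e-06), with 2350 ± 81.9 FPKM in deleted and 4777 ± 115 FPKM in floxed islets on the high-fat diet and 3029.6 ± 294 FPKM in deleted and 2023 ± 77.2 FPKM in floxed islets on chow (SD, n = 3 each). Derl3 had an interaction of -1.52 (SE 0.240, adjusted p = 0.00121), lower in all 3 deleted than in all 3 floxed libraries on the high-fat diet and overlapping on chow. Ddit3 had an interaction of -0.58 (SE 0.133, adjusted p = 0.0177), lower in all 3 deleted libraries on the high-fat diet and higher in all 3 on chow at 14 weeks. No explanation was tested.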

How the results depend on the processing

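Of 43 called differences of the 35 genes, 43 stayed called with a pseudocount of 0.1 and 43 with median-ratio scaling, 37 with no filter, 39 with quantile normalization, 34 with only the groups compared and 24 with the acinar covariate; with a mean of at least 5 FPKM, all 40 that could be tested did. Equal summed FPKM kept 34, ended 3 and reversed 6, at -0.15 for Creld2, -0.19 for Manf, -0.29 for Edem2 and -0.16 for Atf4 in floxed islets on the diet and -0.22 for Manf and -0.21 for Atf4 in deleted islets, where it moved the median of all genes by -0.41; the cause was not tested. Within a genotype, acinar sums did not overlap between the diets or between the ages. Calls that ended with the acinar covariate therefore cannot be assigned to acinar level. Counts of called genes moved by over 1.5 times as follows. For the diet in floxed islets (14) it was 7 with the acinar covariate, 31 with equal sums and 9 to 12 with 1 library left out. For the diet in deleted islets (13) it was 21 with quantile normalization, 3 with the covariate, 32 with equal sums and 7 to 11 with 1 library left out. Between genotypes it was 8 in place of 5 on the high-fat diet with only the groups compared, and at 14 weeks on chow 0 in place of 1 with quantile normalization, 0 with only the groups compared and 0 to 1 with 1 library left out. With age it was 5 in place of 3 in floxed islets with quantile normalization, and in deleted islets 1 in place of 4 with only the groups compared and 7 with equal sums. The interaction with age gave 0 to 2 with 1 library left out. A group of 2 was then assumed to vary like the others. Whether the replicate numbers pair libraries across groups is not settled. Of 45 same-numbered pairs, 8 had a correlation of deviations over 0.1 (median 0.0413). Differently numbered pairs were not computed, so these values cannot exclude a pairing. With the replicate block, 39 of 43 differences stayed called. The count was then 13 genes in place of 14 for the diet in floxed and 10 in place of 13 in deleted islets.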
